A study of Rattus norvegicus with 6 samples.

Results

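Metallothioneins are small, cysteine-rich proteins that bind zinc and copper, and iron handling genes move iron into cells, store it and export it. The set described here is the probe sets annotated with a single symbol among Mt2A, Mt3, Fth1, Cp, Tf and Tfrc. On this array 4 of these 6 genes had such probe sets, 7 in all, out of 14217 genes and 20826 probe sets with 1 symbol. Mt2A and Mt3 had 1 probe set each, Cp had 3 and Tfrc had 2. The ferritin heavy chain gene Fth1 and the transferrin gene Tf appeared only on probe sets annotated with several symbols (1 and 2 probe sets), so no value is given for either.

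Laser-captured retinal ganglion cells of 3 adult male Brown Norway rats were measured, 1 Affymetrix array per eye and 2000 cells per eye. Every animal had Fluorogold-labelled ganglion cells on both sides and raised pressure in 1 eye for 10 days, made by hypertonic saline in an episcleral vein, with the other eye as its control. Arrays are labelled as right eye (OD, n = 3) or left eye (OS, n = 3), without saying which eye was treated, so differences are left minus right within a rat and have no direction with respect to pressure. The control is the fellow eye of a treated animal, and no untreated animal was included.

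In neural tissue, Mt2A belongs to the metallothioneins that rise with metals, glucocorticoids and injury, while Mt3, also called growth inhibitory factor, is enriched in the nervous system. Iron circulates bound to transferrin, enters cells through the transferrin receptor encoded by Tfrc, and is oxidized on its way out by ferroxidases such as ceruloplasmin, encoded by Cp. In the retina, ceruloplasmin is known from glia, and iron is known as a source of oxidative stress.

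The genes were chosen with earlier results of the left-right comparison known, in which Mt2A led the genes that were higher in OS. Differences between eyes of these 7 probe sets are therefore given as a description, and no test of them is read as evidence. The test read for them compares rats, which the choice did not use.

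Intensities had been scaled so that each array had the same trimmed mean. A background limit for each array, the 95th percentile of 27 control probe sets for bacterial RNAs, lay between 261 and 591. The control signal from the 3′ end of beta-actin relative to its 5′ end, a sign of RNA quality and amplification, was stronger on the OS array in each of the 3 rats, with a log2 difference of 1.32 ± 0.52 (SD, n = 3 rats). The same control for Gapdh gave -0.46 ± 1.86, with 0.29, 0.90 and -2.58 in rats 1 to 3, so it went the other way in rat 3. Of 10 ganglion cell marker genes measured, 6 exceeded the limit on all 6 arrays. Their summed intensity was 19688 to 25775 in OD and 9531 to 9984 in OS, so the eyes did not overlap, and 9 of the 10 had a lower mean in OS. Markers of other cells gave signal too: 9 of 9 photoreceptor, 9 of 9 Mueller glia and astrocyte, 11 of 11 microglia and macrophage and 5 of 6 amacrine genes exceeded the limit on at least 1 array. On all 6 arrays 2, 3, 0 and 3 of them did, in the same order. Of all probe sets, 34.8% to 58.1% exceeded the limit on any single array, so counts on at least 1 array do not by themselves show that such cells were captured. In captured cells, fewer cells of a type and less RNA per cell cannot be told apart.

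**Figure D1:**
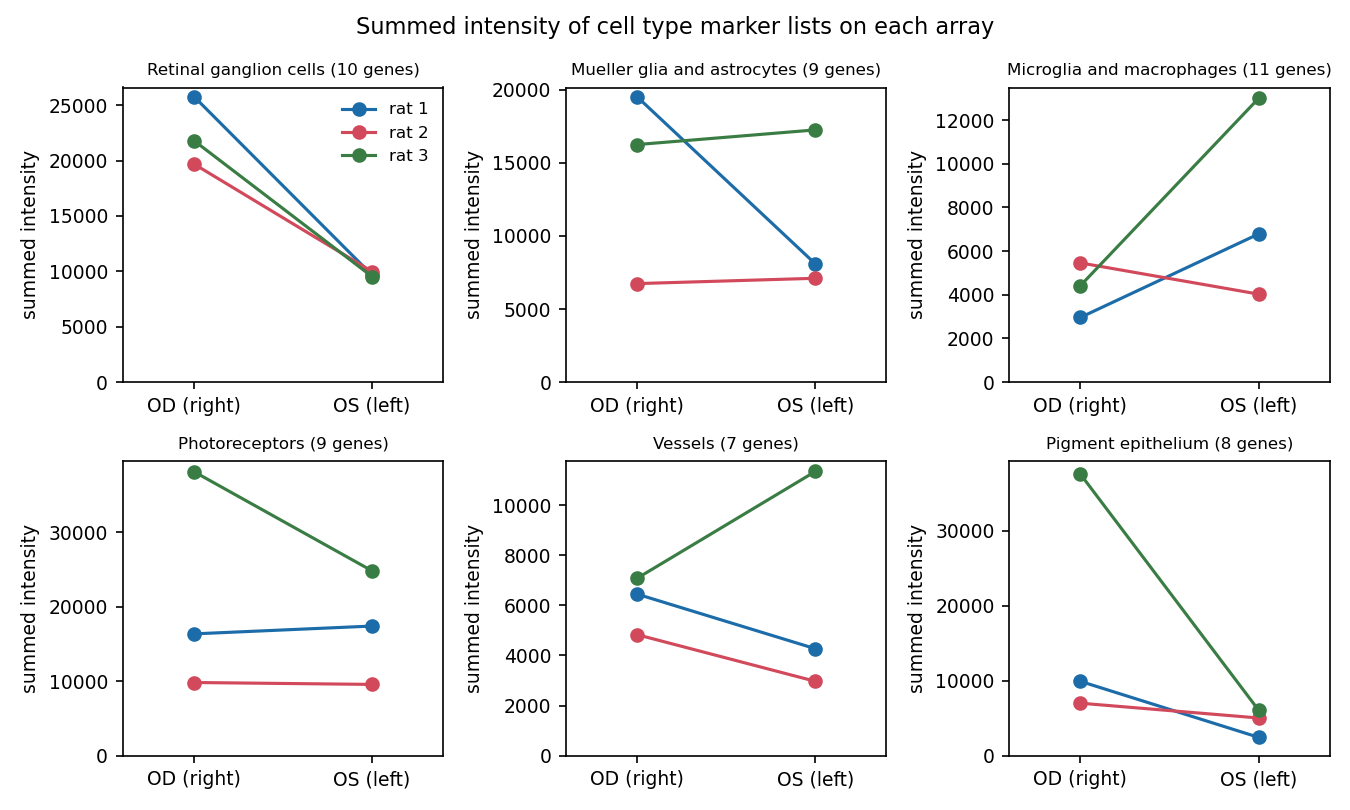
Each panel shows the summed intensity (linear axis from 0) of 1 marker list in the right (OD) and left (OS) eye, with a line for each of the 3 rats. Ganglion cell markers summed to 9531 to 9984 on the 3 OS arrays, below all 3 OD arrays, and photoreceptor markers were highest on both arrays of rat 3.

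Mt2A and Mt3 differed in opposite directions between the eyes of all 3 rats: Mt2A was higher and Mt3 lower in OS. Both genes lie on chromosome 19 of the rat assembly GRCr8, on the same strand, with 0 other annotated genes between them. Because these neighbours differed in opposite directions, the 250 bases before the annotated start of each are shown, read 5′ to 3′ on the gene strand from RefSeq's GRCr8 sequence. Capitals mark matches to the core of the metal response element, the motif through which the transcription factor MTF1 acts on metallothionein genes.
Mt2A: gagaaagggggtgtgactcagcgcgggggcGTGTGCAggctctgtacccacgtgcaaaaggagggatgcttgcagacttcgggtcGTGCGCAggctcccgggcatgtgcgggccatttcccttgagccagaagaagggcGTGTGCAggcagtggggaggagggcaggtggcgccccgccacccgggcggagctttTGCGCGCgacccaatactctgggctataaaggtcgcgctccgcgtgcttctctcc
Mt3: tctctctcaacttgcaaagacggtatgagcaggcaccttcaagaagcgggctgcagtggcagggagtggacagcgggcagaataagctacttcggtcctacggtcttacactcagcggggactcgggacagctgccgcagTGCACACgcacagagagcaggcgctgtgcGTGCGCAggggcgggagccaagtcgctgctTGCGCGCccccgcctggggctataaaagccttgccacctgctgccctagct
The Mt2A stretch is chr19:10838709-10838958 and the Mt3 stretch chr19:10856081-10856330, both on the minus strand.

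The searched cores were TGCACNC and TGCGCNC, on both strands. Mt2A had 4 matches, 1 on the gene strand and 3 on the other, and Mt3 had 3, of which 2 were on the gene strand. None of these matches overlapped another. Of 33360 distinct upstream windows of the same length in the RefSeq table, 20.6% held at least 1 match, 1.17% at least 3 and 0.264% at least 4. The Mt2A window also held 1 match to the antioxidant response element core TGACNNNGC, searched on both strands, which 10.1% of windows held and the Mt3 window did not. Both windows had a TATAAA match on the gene strand starting 31 bases before the start; 8.06% of windows held this motif on the gene strand. Upstream of Tfrc there were 3 metal response element matches, 2 of them overlapping each other, and upstream of Cp there were 0. These matches are letters in a window and do not show binding.

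**Figure D2:**
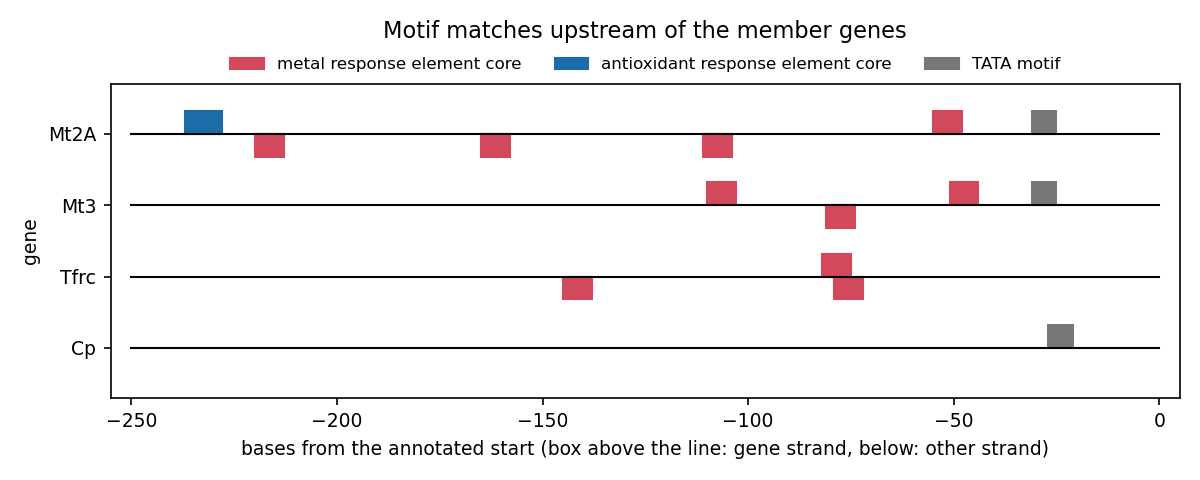
Motif matches in the 250 bases before the annotated start of Mt2A, Mt3, Tfrc and Cp, plotted by distance from the start in bases, with boxes above the line on the gene strand and below it on the other strand. Mt2A has 4 metal response element matches, Mt3 and Tfrc have 3 each and Cp has 0; only Mt2A of these 4 has an antioxidant response element match.

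The Mt2A probe set (1388271_at) had intensities of 1534 (OD) and 3851 (OS) in rat 1. In rat 2 it measured 233 (OD) and 2966 (OS), and in rat 3 it measured 1611 and 4163. All 3 OS arrays were brighter than all 3 OD arrays, so the eyes did not overlap. On the log2(intensity + 16) scale the difference, OS minus OD, was 1.32 in rat 1, 3.58 in rat 2 and 1.36 in rat 3, with a mean of 2.09 ± 1.29 (SD, n = 3 rats). The wide spread came from the OD array of rat 2, where Mt2A lay below that array's background limit of 591 and has only an upper bound. With this value set to the limit, rat 2 differed by 2.30 and the mean was 1.66 ± 0.55. Without rat 2 the mean was 1.34.

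The Mt3 probe set (1370124_at) went the other way. Its intensity was 2405 (OD) and 762 (OS) in rat 1, 1409 and 410 in rat 2, and rat 3 had 1963 and 1013. The 3 OD arrays were all brighter than the 3 OS arrays. The log2 differences were -1.64, -1.74 and -0.94 in rats 1 to 3, with a mean of -1.44 ± 0.43 (SD, n = 3 rats). The OS value of rat 2 lay below its array's limit of 547. With it set to the limit, the mean was -1.31 ± 0.35.

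Set against each other within each array, where the array's scaling cancels, Mt2A and Mt3 differed unequally between eyes in every rat. The Mt2A difference minus the Mt3 difference was 2.96 in rat 1, 5.32 in rat 2 and 2.30 in rat 3 on the log2 scale, a mean of 3.53 ± 1.59 (SD, n = 3 rats). In rat 2 the Mt2A value in OD and the Mt3 value in OS lay below the limit, and setting both to it gave 3.64 for that rat and a mean of 2.97 ± 0.67. Summed ganglion cell markers, with the sums given above, were lower in OS along with Mt3, and 6 of the 10 genes were lower in all 3 rats. Sncg and Isl1 were higher in OS in rats 2 and 3, and Nefl and Slc17a6 in rat 2. Summed pigment epithelium markers, at 6996 to 37528 in OD and 2448 to 6082 in OS, did not overlap either, but only 3 of the 8 genes were lower in OS in all 3 rats. In rat 2, Rpe65, Tyrp1, Tyr and Pmel were higher in OS, and Ttr, Dct, Mlana and Rgr were lower. Summed amacrine markers were lower in OS in every rat, with the widest gap in rat 3 (60221 in OD against 20310), 20294.5 against 9781 for rat 2 and 23418 against 9500.3 for rat 1. Only 3 of the 6 genes, Gad1, Calb2 and Tfap2b, were lower in OS in all 3 rats. Slc6a9 was higher in OS in rats 2 and 3, and Gad2 in rat 1. Summed Mueller glia and astrocyte markers did not separate the eyes, and their genes went both ways, 4 with a lower and 5 with a higher mean in OS. In rat 1, Glul (5788 in OD, 741 in OS), Rlbp1 (7967, 560), Slc1a3 and S100b were lower in OS, and the other genes were higher. In rat 3 only Gfap (774 in OD, 3777 in OS) and Vim (761, 5185) were higher in OS. The glial list summed to 19513 (OD) and 8096 (OS) in rat 1, 6741 and 7104 in rat 2, and rat 3 had 16249 and 17251. Microglia and macrophage markers summed to 2963 (OD) and 6782 (OS) in rat 1, 5460 and 4031 in rat 2, and rat 3 had 4419 and 12989, so they were higher in OS in 2 of 3 rats. The part of these cell types, and of the beta-actin 3′ signal, in the metallothionein differences was not tested.

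**Figure D3:**
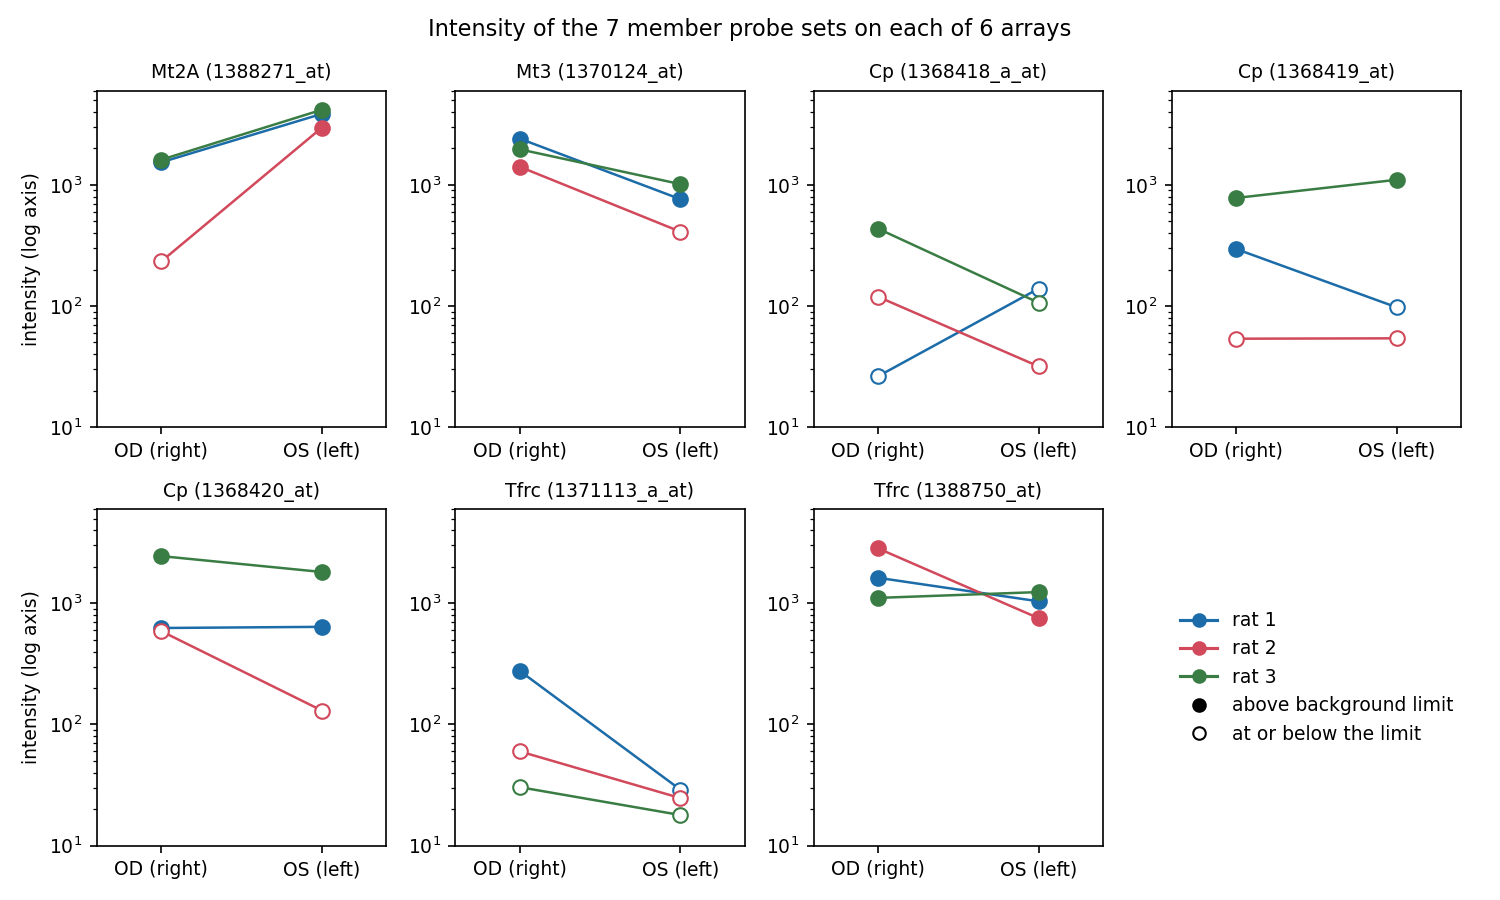
Each panel plots the intensity (log axis) of 1 probe set in the right (OD) and left (OS) eye, with a line for each of the 3 rats; filled points lie above the array's background limit and open points at or below it. All 3 Mt2A lines go up and all 3 Mt3 lines go down from OD to OS, while the brightest Cp probe set (1368420_at) is highest in rat 3 in both eyes.

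Another metallothionein on the array, Mt1 (1388267_a_at), was not among the chosen genes and comes from a list of related genes. It exceeded the limit on all 6 arrays, with 729 (OD) and 1398 (OS) in rat 1, 1028 and 1193 in rat 2, and rat 3 had 2844 and 5013. Like Mt2A it was higher in the left eye in 3 of 3 rats, with a smaller log2 difference of 0.65 ± 0.38 (SD, n = 3 rats), which did not pass the test (limma adjusted p = 0.813 over all probe sets). Its levels overlapped between the eyes and were highest in rat 3. Metallothionein transcripts are alike in sequence, and cross-hybridization between their probe sets was not tested.

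For the transferrin receptor gene Tfrc, the brighter probe set (1388750_at) exceeded the limit on all 6 arrays. Its intensity was 1624 (OD) and 1038 (OS) in rat 1, 2839 and 753 in rat 2, and rat 3 had 1108 and 1238. It was lower in OS in rats 1 and 2 and slightly higher in rat 3, and the eyes overlapped. The mean log2 difference was -0.79 ± 1.03 (SD, n = 3 rats), smaller than its own spread, and it was -0.24 without rat 2. The dim probe set (1371113_a_at) exceeded the limit on 1 of 6 arrays, the OD array of rat 1 at 277, and ranged from 17.9 to 60.0 on the other arrays. Its difference of -1.35 ± 1.19 turned to 0.29 ± 0.34 with values set to the limit, so it gives no direction for Tfrc.

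For the ceruloplasmin gene Cp, the highest values of the brighter pair of probe sets came from rat 3, in both eyes. Its brightest probe set (1368420_at) had 625 (OD) and 639 (OS) in rat 1, 589 and 130 in rat 2, and rat 3 had 2451 and 1813. Both arrays of rat 3 were above all others, and rat 2 lay below the limit in both eyes. The OS minus OD difference was -0.82 ± 1.09 on the log2 scale (SD, n = 3 rats), with overlapping eyes, and it was -0.20 without rat 2. The second Cp probe set (1368419_at) had 295 and 97.2 in rat 1, 53.7 and 54.1 in rat 2, and rat 3 had 779 and 1101. It too was highest on both arrays of rat 3. The probe set 1368418_a_at exceeded the limit only on the OD array of rat 3, at 435, and was 26.3 to 139 elsewhere. The annotation lists the dimmer pair of probe sets under the same sequence record, so they are not separate evidence.

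A comparison of rats in the same limma fit, with eye as a covariate, asked whether levels went with the animal. It takes both eyes of a rat as its spread, so it compares these 3 animals, and animal, dissection, amplification and array cannot be told apart. Of the 4 member probe sets bright enough to be tested, 0 passed at an adjusted p of 0.05 (limma), where 2.51% of all tested probe sets did. At an unadjusted p under 0.05 there were 2 of the 4 (limma), Mt2A and Cp, beside 2021 of all 15521 tested. For Mt2A the OD value of rat 2 lay below the limit, and without rat 2 its limma adjusted p was 0.965. For Cp the mean log2 levels of rats 1 to 3 were 9.34, 8.22 and 11.05, so rat 3 was 2.27 above the average of the others (limma adjusted p = 0.161). Both values of rat 2 lay below the limit, so its level has only an upper bound, and the gap at the limit was not computed. Over the 9 alternatives the adjusted p of Cp ran from 0.0350, without rat 1, to 0.998, without rat 3, so the Cp difference rests on rat 3. Without rat 1, rat 3 is compared only with rat 2. Of all tested probe sets, 10.8% had both arrays of rat 3 above the other 4. The limma adjusted p was 0.335 for Mt2A, 0.759 for Mt3 and 0.969 for Tfrc. Mt1 was 1.82 higher in rat 3 than the average of the others (limma adjusted p = 0.148). The count of all probe sets past this threshold was 390, falling to 6 without rat 3, reaching 620 without rat 1 and becoming 0 without the intensity trend (1464 at an unadjusted p under 0.05).

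Markers of other retinal cells were not uniformly higher in rat 3. Photoreceptor markers summed to 24820 (OS) and 38138 (OD) on the arrays of rat 3 against 9568 to 17404 on the others, with Rom1 alone giving 10439 and 18533. Vessel markers summed to 7080 and 11340 against 2967 to 6445, but Kdr alone gave 8614 of the 11340, and without Kdr the OS array of rat 3, at 2726, lay inside the range of the others. Pigment epithelium markers were 37528 in its OD and 6082 in its OS array, against 2448 to 9906 elsewhere. Mueller glia and astrocyte markers, at 16249 and 17251, lay inside the range of the other arrays, 6741 to 19513. The part of these cell types in the level of Cp was not tested.

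Between eyes, the limma fit put 0 of the 4 tested members past the threshold, beside 0.0129% of all tested probe sets (2 of 15521, and 26, 59 and 18 without rats 1, 2 and 3). Since the members were chosen with this contrast known, nothing is read from that count. The eyes did not overlap for 2 of the 4, Mt2A on the higher and Mt3 on the lower side in OS. Over all tested probe sets 9.95% did not overlap, 4.88% with OS higher and 5.08% with OS lower. Of the 7 member probe sets 6 had a lower mean in OS, Mt2A being the exception, but only 3 did with values set to the limit, where 1368418_a_at, 1368419_at and 1371113_a_at came to 0.13, 0.27 and 0.29. The median difference as deposited, over the 4 tested, was -0.80 against -0.01 over all tested. Nothing is read from this median either, as the choice of members used the same contrast. The remaining 3 member probe sets fell below the median brightness and were not tested.

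**Figure D4:**
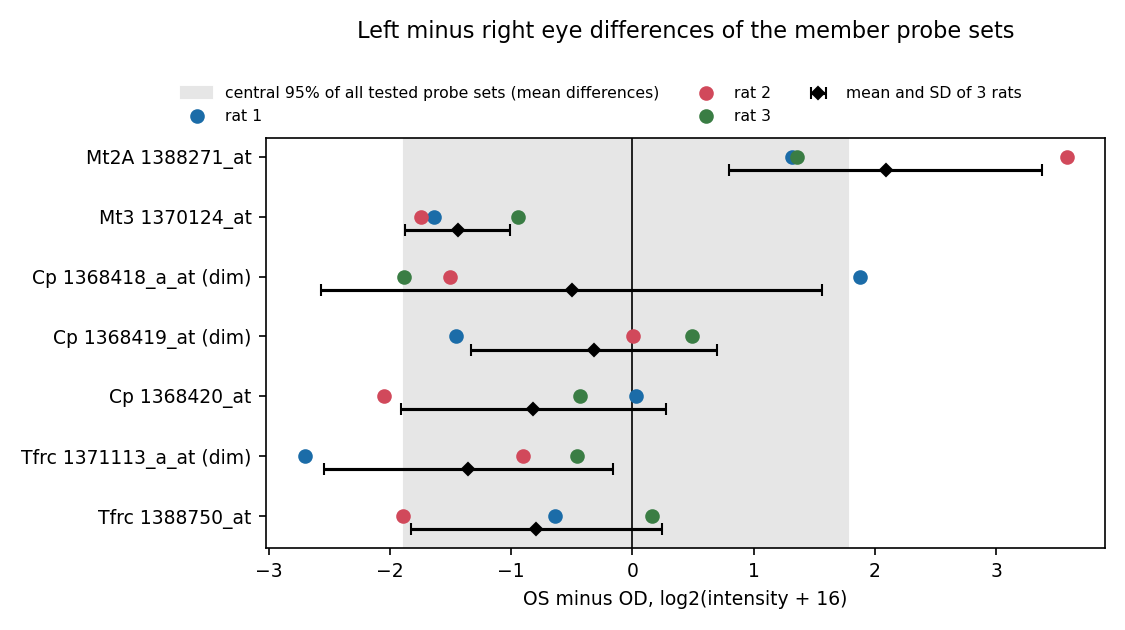
OS minus OD differences on the log2(intensity + 16) scale for the 7 member probe sets; coloured points are the 3 rats, diamonds with bars the mean and SD, and the grey band the central 95% of mean differences of all tested probe sets. The Mt2A mean of 2.09 lies to the right of the band, whose upper edge is 1.78, but it is 1.66 with the rat 2 value set to the limit and 1.34 without rat 2, both inside it. Mt2A was chosen with this contrast known, so its place against the band is a description only. Points of the Cp probe sets and of 1388750_at for Tfrc fall on both sides of 0.

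Profiles most like that of Mt2A were sought among 10519 probe sets with 1 symbol that exceeded the limit on at least 3 arrays. By Pearson's r over the 6 arrays, Trim26 (0.992), Lyrm2 (0.991), Ube2l6 (0.991), Bola2 (0.989) and Sct (0.988) came closest. All 5 had their lowest value on the OD array of rat 2, from 33.4 for Sct to 401 for Bola2, and a higher mean in OS. Choosing by r with Mt2A favours both traits, so they are no separate result. Mt2A and all 5 lay below that array's limit of 591, and r without this array was not computed. Mt3 had an r of -0.44 with Mt2A. The 6 points come from 3 rats and share their array scaling, so these values describe the arrays only.

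Around these genes, a list of 80 other metal and iron handling genes had 68 measured and 42 bright enough to test. None of the 42 passed between eyes in either direction (limma, smallest adjusted p 0.530), and 0 passed between rats. At an unadjusted p under 0.05 between eyes there were 4 of the 42 (limma), beside 1072 of all 15521 tested. By mean, 25 were lower and 17 higher in OS, with a median log2 difference of -0.18 against -0.01 over all tested probe sets. The 6 iron uptake genes tested had a lower mean in OS (median -0.83), where 50.5% of all tested probe sets did, and 2 of the 6 were lower in each of the 3 rats. With values set to the limit Steap1 moved from -0.48 to 0.32, and the 4 uptake genes too dim to test had higher means in OS. Metallothionein and zinc transport genes were split 7 and 7 (median 0.04).

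Among the uptake genes, Steap2, which encodes a metalloreductase, had the most even difference. Its intensity was 1718 (OD) and 556 (OS) in rat 1, 1927 and 951 in rat 2, and rat 3 had 3123 and 1384. The left eye was lower in 3 of 3 rats, with a log2 difference of -1.26 ± 0.31 (SD over 3 rats). It did not pass the test (limma adjusted p = 0.633), and its second probe set had a higher mean in OS. Slc22a17, a receptor for the iron carrier lipocalin 2, was 10590 and 3461 in rat 1, 4794 and 4999 in rat 2, and rat 3 had 23101 and 9275, with a mean difference of -0.95 ± 0.89 (limma adjusted p = 0.687), or -0.63 without rat 1 and -1.46 without rat 2. Cybrd1, a ferric reductase gene, exceeded the limit on all 3 OD arrays and on 0 of 3 OS arrays. On the mean over rats OD was at least 1.55-fold higher, computed against the limit (limma adjusted p = 0.700). In rat 1 the bound was near 0, with a log2 difference of -0.04 at the limit (410 in OD against an OS limit of 400).

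Of the genes that sense and release iron, Fbxl5, whose product is an iron-sensing ubiquitin ligase subunit, had 2269 (OD) and 1024 (OS) in rat 1, 2830 and 560 in rat 2, and rat 3 had 3328 and 1835. The eyes did not overlap, the log2 difference was -1.43 ± 0.77 (SD, n = 3 rats), and it did not pass (limma adjusted p = 0.530). Ncoa4, the receptor that delivers ferritin to lysosomes, differed by -1.81 ± 2.21 (limma adjusted p = 0.730), with 24.2 on the OS array of rat 3 and 608 to 1107 on the others. It was -0.53 without rat 3 and -0.67 with that value set to the limit. The iron regulatory protein gene Aco1 had the opposite sign. Aco1 differed by 1.58 ± 2.10, with OS above OD in 3 of 3 rats (limma adjusted p = 0.801), but the size rests on an OD value of 23.7 in rat 3, below the limit. The OD value of rat 2, at 564, lay below the limit of that array too. The Aco1 difference was 0.37 without rat 3 and 0.57 with values set to the limit. The other iron regulatory protein gene, the dim Ireb2, was above the limit on 0 of 3 OD and 2 of 3 OS arrays and was not tested. Its mean was higher in OS, but with values set to the limit rat 2 came to -0.11.

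The copper pump gene Atp7a differed by -1.97 ± 3.17 (limma adjusted p = 0.730), with an OS value of 14.1 in rat 2, and was higher in OS in rat 1. It was -0.16 without rat 2 and -0.56 with that value set to the limit, and 1 of the 3 Atp7a probe sets had a higher mean in OS. The heme oxygenase gene Hmox1 was 478 and 652 in rat 1, 66.2 and 260 in rat 2, and rat 3 had 645 and 488, a difference of 0.60 ± 1.08 (limma adjusted p = 0.919). Both arrays of rat 2 lay below the limit, and the difference was 0.02 without rat 2 and -0.02 with values set to the limit, so it gives no direction for Hmox1. The iron exporter gene Slc40a1 exceeded the limit on 1 of 3 arrays of each eye and was too dim to test.

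**Figure D5:**
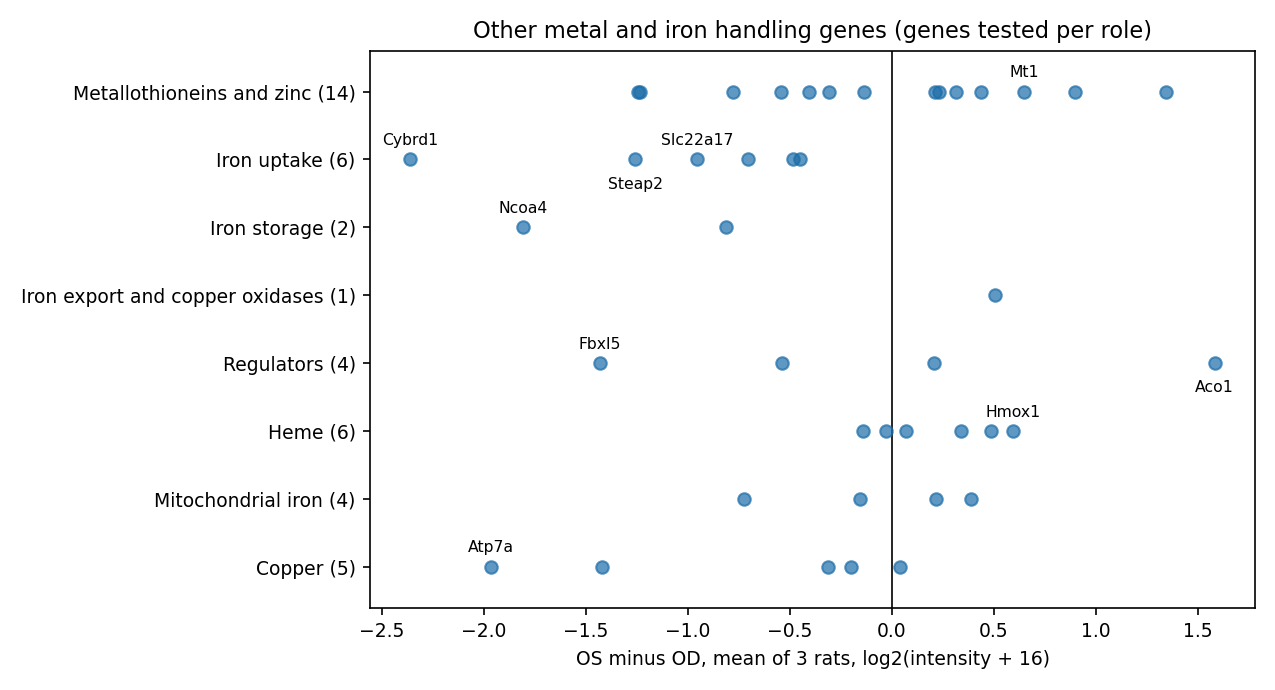
Mean OS minus OD difference on the log2(intensity + 16) scale of each of the 42 tested metal and iron handling genes outside the chosen set, by role, with the number of genes tested in parentheses and the genes described in the text labelled. The 6 iron uptake genes lie left of 0, of which Steap1 moves to 0.32 with values set to the limit, and metallothionein and zinc genes lie on both sides.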

How the data were processed

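The deposited values are 1-colour Affymetrix intensities, 1 per probe set, and the submitters' processing notes name GCOS. Which GCOS version and scaling target were used is not given in the sources used here. Equal trimmed means (500.1 on each array) show global scaling before deposit. RNA was amplified linearly, per the labels' protocols. No further normalization was applied. Of 31099 probe sets, 57 controls were left out; 20826 others had 1 symbol.

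With an offset of 16, log2 values of the 15521 probe sets at or above median brightness were fitted with limma 3.58.1 in R 4.3.3 (eye and rat as fixed terms, eBayes with intensity trend, Benjamini-Hochberg, threshold 0.05; 2 residual and 19.4 prior degrees of freedom). Rats were compared by the moderated F test. Eyes are paired because they come from the same animal, per the titles. Deviations correlated at 0.109, 0.122 and 0.326 between the eyes of rats 1 to 3. Across animals the values were 0.088 and 0.104 between rats 1 and 2, and -0.197 to -0.164 with rat 3. These values therefore do not set the pairs of rats 1 and 2 apart. On simulated data for 15521 probe sets the fit recovered 0% of 2-fold and 4-fold, 30% of 8-fold and 40% of 16-fold differences between eyes, and 0%, 0%, 22% and 54% between rats.

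Members and lists were chosen with earlier results of these data known. Members are described by all probe sets; a list gene by its brightest probe set; named list genes are the 6 with the smallest unadjusted p plus Ftl1, Slc40a1, Aco1, Ireb2, Mt1 (synonym Mt1a) and Hmox1 where measured. Likeness was computed for Mt2A; the same step for Tf was not run, as Tf had 0 probe sets with 1 symbol. Marker lists covered ganglion, Mueller glia and astrocyte, microglia, pigment epithelium, photoreceptor, amacrine, vessel, red blood, oligodendrocyte and plasma protein genes. The number of arrays limits the precision.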

Additional observations from a re-analysis of the deposited data

How the results depend on the processing

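With an offset of 1 or 64, after quantile normalization and with 1 rat left out (6 alternatives), the differences between eyes of Mt2A, Mt3, the brightest Cp and both Tfrc probe sets kept their sign. Leaving out a rat moved Mt2A between 1.34 and 2.47 and Mt3 between -1.69 and -1.29. The dim Cp probe sets 1368418_a_at and 1368419_at each changed sign once, at highest to 0.19 and 0.25. Setting dim values to the limit and leaving out Kdr were choices made after seeing the data. Values at the limit turned the dim Tfrc probe set from -1.35 to 0.29, and 1368418_a_at and 1368419_at for Cp from -0.50 to 0.13 and from -0.32 to 0.27. They moved the brightest Cp probe set from -0.82 to -0.17. Between eyes, the 2 calls over all probe sets became 0 with no replicate block, an offset of 1, quantile normalization, the 75th percentile filter or no intensity trend, 9 with an offset of 64 or no filter, and 18 to 59 when a rat was left out. Between rats, the 390 calls became 237 after quantile normalization, 152 with the 75th percentile filter, 0 without the trend (limma, 1464 at an unadjusted p under 0.05) and 6 to 620 when a rat was left out; the cause was not tested. Medians of all differences moved by -0.02 after quantile normalization.

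Oligodendrocyte markers summed to 1494.6 to 2480 in OD and 1536 to 3260 in OS, red blood cell markers to 440 to 1345 and 695 to 1694, plasma proteins to 746 to 1170 and 548 to 1307, and amacrine markers to 20294.5 to 60221 and 9500.3 to 20310.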
